A study of Mus musculus with 8 samples.

Results

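These are 2968 regions of mouse chromatin where FLAG-tagged NANOG and the active mark H3K27ac were found in both arms of a reprogramming experiment. Each arm carried its own form of NANOG, wild-type or fusion, and BRG1 was found only in the arm with the fusion. The members were chosen by merging overlapping or touching peaks of 4 lists, FLAG and BRG1 of each arm, into 93352 regions, and by keeping those with FLAG peaks in both arms, a BRG1 peak in NanogBiD, no BRG1 peak in NanogWT, and overlap with H3K27ac peaks of both arms. They were 3.18% of all merged regions, 6.68% of the 44464 regions with FLAG in both arms, and 20.9% (Wilson 95% interval 20.2 to 21.6) of the 14212 such regions with BRG1 in NanogBiD only. Presence and summit height of FLAG, BRG1 and H3K27ac therefore belong to the choice of members and are given as a description. H3K4me1, genome position and sequence were not used to choose them.

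CUT&Tag, in which an antibody carries a transposase to its target in permeabilised cells so that nearby DNA is cut and tagged, had been performed on mouse embryonic fibroblasts of OG2 origin, which carry an Oct4-GFP reporter, at day 5 of reprogramming. Cells of both arms received retroviral Oct4. In the NanogWT arm, labelled Nanog+Oct4, they also received Nanog, and in the NanogBiD arm, labelled NanogN70+Oct4, Nanog fused to the BRG1-interacting domain of SS18. There were 8 libraries, 1 for each of 4 targets (FLAG-tagged NANOG, BRG1, H3K27ac, H3K4me1) in each of 2 arms, and the authors had merged replicates, so no test between arms was possible and how much cultures vary is unknown. Both arms are mixed populations of infected cells, and a change in the share of cells with a signal cannot be told apart from a change per cell.

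NANOG is a homeodomain transcription factor of pluripotent cells. BRG1, encoded by Smarca4, is the ATPase of the BAF complex, which slides and evicts nucleosomes, and SS18 is a subunit of that complex. H3K27ac is deposited by the acetyltransferases p300 and CBP at active enhancers and promoters, and H3K4me1 by the MLL3 and MLL4 methyltransferases at enhancers and the flanks of promoters, often before acetylation. The members are thus sites with NANOG and an active mark in either arm, at which the arms differed in whether a remodeller peak was called.

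The labelled cell type was checked by H3K27ac at promoters. Of 10 fibroblast markers, 9 had a promoter peak in each arm, among them Col1a1, Vim and Twist1, and Prrx1 had none. Of 8 pluripotent cell markers, none had a peak in NanogWT and 1, Tdgf1, had a peak of 20 tags in NanogBiD. Other cell types were not absent from the lists: of 4 macrophage markers 2 had a peak in NanogWT and 3 in NanogBiD, of 5 epithelial markers 1 and 2, and of 4 endothelial markers 0 and 2. Their part in the results was not tested.

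Sequences are shown for members away from promoters, because these made up most of the class, for the site with the highest BRG1 score and for some of the sites with the highest BRG1 scores that held a consensus of AP-1 (the somatic FOS and JUN factors), of OCT4 (the octamer) or of SOX factors. Each is 101 bases of the + strand of mm10 (GRCm38), centred on the NanogBiD FLAG summit, in introns or between genes. Capitals mark the match named for each window, and at Psat1 also a pair of matches to a homeodomain core.
Zfhx3 intron, chr8:108455048-108455148, no AP-1, octamer or SOX match: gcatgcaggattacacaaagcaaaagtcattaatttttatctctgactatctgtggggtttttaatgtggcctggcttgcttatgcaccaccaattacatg
Psat1, intergenic, chr19:15837175-15837275, octamer and homeodomain: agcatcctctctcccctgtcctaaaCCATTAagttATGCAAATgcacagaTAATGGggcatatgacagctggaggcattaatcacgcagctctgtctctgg
Adgrl3 intron, chr5:81061481-81061581, octamer: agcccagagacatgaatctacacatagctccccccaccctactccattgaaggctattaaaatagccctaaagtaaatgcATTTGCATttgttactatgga
Stt3b, intergenic, chr9:115322586-115322686, octamer: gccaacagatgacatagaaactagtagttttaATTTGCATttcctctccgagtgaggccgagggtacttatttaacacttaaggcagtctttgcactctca
Car10, intergenic, chr11:92783312-92783412, AP-1: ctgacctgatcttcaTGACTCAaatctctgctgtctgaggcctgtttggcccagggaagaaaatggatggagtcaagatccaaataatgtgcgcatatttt
Parp12 intron, chr6:39102763-39102863, AP-1: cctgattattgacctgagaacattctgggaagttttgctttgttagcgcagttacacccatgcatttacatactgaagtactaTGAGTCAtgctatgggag
Tinag, intergenic, chr9:77054781-77054881, SOX: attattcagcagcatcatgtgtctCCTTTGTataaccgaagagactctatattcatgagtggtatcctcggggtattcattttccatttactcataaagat
Kif6 intron, chr17:49851318-49851418, SOX: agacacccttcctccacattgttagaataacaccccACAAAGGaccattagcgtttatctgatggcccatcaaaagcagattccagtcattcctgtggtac
The first base of a match lay between 0 bases from the summit, for a homeodomain core at Psat1, and 35 bases from it, for AP-1 near Car10.

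The members with the highest BRG1 scores are described first, as extremes of the class and not as typical members. Over all members the median BRG1 height was 13 tags (quartiles 10 and 17), FLAG was lower in NanogBiD at 31.3% and H3K27ac at 24.9%. The regions with the highest scores are named by the nearest start site of a protein-coding gene, which says nothing of regulation. The region with the highest score lay in an intron of Zfhx3, a large zinc-finger homeodomain factor, 156 kb from its nearest start site. FLAG had a summit height, the number of tags piled up at a peak's highest point, of 39 with wild-type NANOG and 65 with the fusion. The height was 39 for BRG1 in NanogBiD, 13 and 23 for H3K27ac and 12 and 14 for H3K4me1. All of these were higher in NanogBiD, and BRG1 had no peak in NanogWT. The region 70.8 kb from Psat1, an enzyme of serine synthesis, whose octamer is printed above, had FLAG heights of 22 and 57, a BRG1 height of 41, H3K27ac heights of 8 and 24 and H3K4me1 heights of 12 and 18. Its NanogWT H3K27ac peak had a score of 55.4, close to the minimum of 50 in the lists. Near Nkx6-1, a homeodomain factor of neurons and beta cells, FLAG heights were 14 and 40 and H3K27ac heights 9 and 22, with 26 tags of BRG1.

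Other members with high BRG1 scores had nearly equal NANOG in the arms. In an intron of Sytl5 on chromosome X, FLAG heights were 36 and 39 and H3K27ac heights 10 and 11, with 29 tags of BRG1 in NanogBiD and no H3K4me1 peak in either arm. At the promoter of Ncoa1, which encodes a nuclear receptor coactivator, FLAG heights were 35 and 40 and H3K27ac heights 16 and 18, with 25 tags of BRG1. The promoter of Dnajc21, a co-chaperone of ribosome assembly, had FLAG heights of 32 and 36, H3K27ac heights of 20 and 22 and 23 tags of BRG1. In these 3 regions FLAG and H3K27ac differed by at most 5 tags between the arms, while BRG1 had a peak in NanogBiD only. By contrast, at the promoter of Agbl4, a carboxypeptidase that acts on tubulin, FLAG heights were 16 and 45 with H3K27ac at 14 and 17, and at that of Ccdc33 FLAG heights were 11 and 29 with H3K27ac at 11 and 25. FLAG and H3K27ac heights were higher in NanogBiD at all 12 of the named regions, 6 at promoters and 6 away from them, which were chosen for their NanogBiD BRG1 score. At Sytl5 the H3K27ac peak score went the other way, 149 in NanogWT and 71.3 in NanogBiD.

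**Figure D1:**
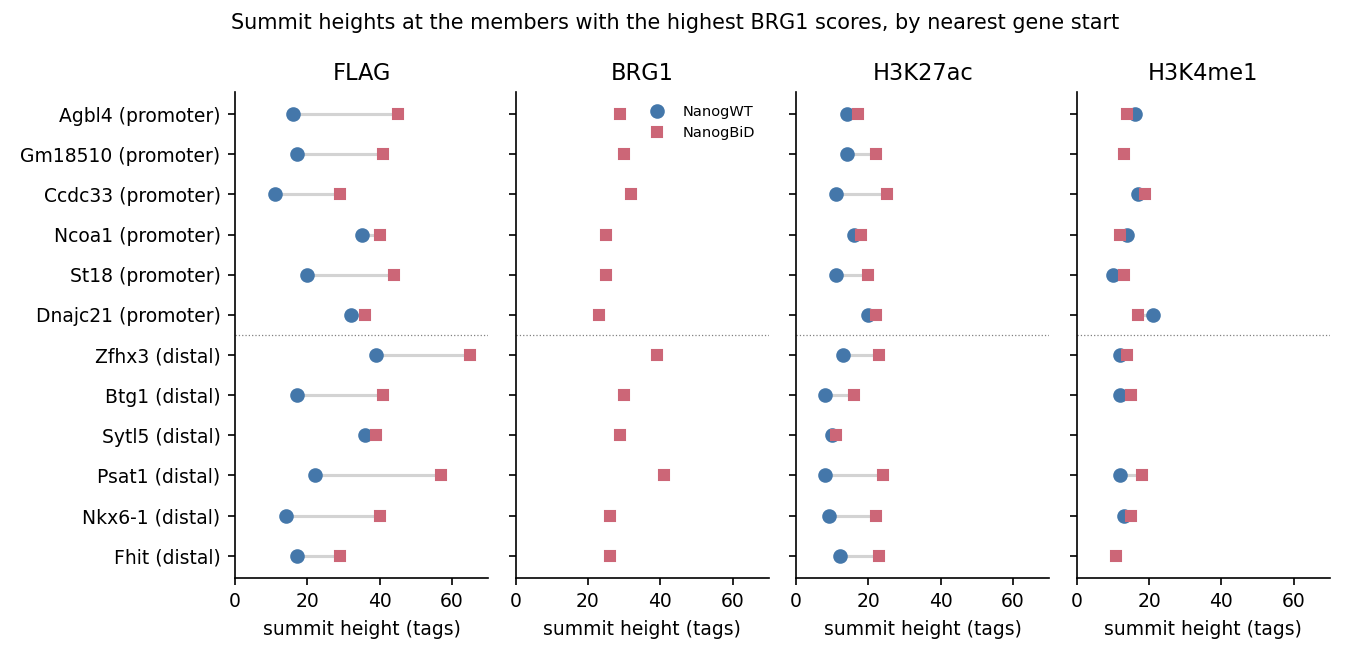
Summit heights in tags (x axes, linear) of the 4 targets at the 6 promoter members and 6 distal members with the highest NanogBiD BRG1 scores (rows, named by the nearest protein-coding gene, except at the start of the pseudogene Gm18510), with NanogWT as blue circles and NanogBiD as red squares. BRG1 has no blue circles by the rule, FLAG runs from 11 to 39 tags in NanogWT and 29 to 65 in NanogBiD, and H3K4me1 lies between 10 and 21 tags, with its widest gap at Psat1, 12 against 18 tags.

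Over all 2968 members, heights were modest. The FLAG height in NanogWT ranged from 7 to 59 tags with a median of 16 (quartiles 12 and 21), and in NanogBiD from 7 to 68 with a median of 19 (14 and 25). BRG1 in NanogBiD ranged from 6 to 41 with a median of 13 (10 and 17). H3K27ac ranged from 7 to 55 with a median of 13 (11 and 16) in NanogWT, and from 8 to 48 with a median of 15 (13 and 19) in NanogBiD. The distributions of the arms overlapped widely. A single height carries large counting error: the exact Poisson 95% interval is 6.92 to 22.2 for 13 tags, 9.15 to 26.0 for 16 and 11.4 to 29.7 for 19, and such intervals cover counting error only.

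Members had lower median heights, in each of the 7 libraries in which they had peaks, than the 18534 regions with FLAG, BRG1 and H3K27ac peaks in both arms, here called the BRG1-shared class. There the median heights were 21 and 22 for FLAG, 16 and 18 for BRG1, and 22 and 23 for H3K27ac, in NanogWT and NanogBiD in that order. Being a member depended on height accordingly. Among the 22811 regions with FLAG and H3K27ac in both arms, 13.0% were members, but the share was 42.4% where NanogWT H3K27ac was below 10 tags and 0.720% where it was 30 or more. It was 25.1% where NanogWT FLAG was below 10 tags and 3.91% where it was 30 or more. Whether BRG1 signal too weak to be called lay at the members in NanogWT was not tested.

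**Figure D2:**
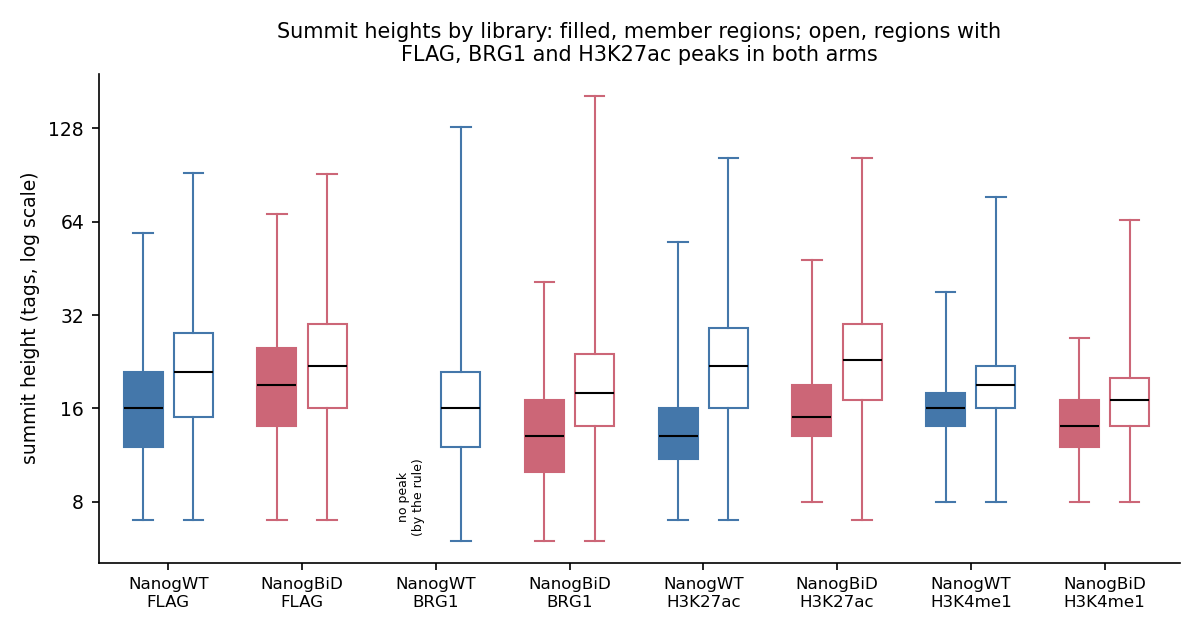
Summit height in tags (y axis, log scale) in each of the 8 libraries (x axis) for the 2968 members (filled) and the 18534 regions with FLAG, BRG1 and H3K27ac in both arms (open); boxes show quartiles and median, whiskers the lowest and highest region, and H3K4me1 boxes hold only regions with a peak. Members, which have no NanogWT BRG1 peak, have lower medians in the other 7 libraries, with the widest gap for H3K27ac, 13 against 22 tags in NanogWT.

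Both NANOG and H3K27ac tended to be higher in NanogBiD at the members. FLAG was higher in NanogBiD at 1847 members, 62.2%, beside 58.6% of all regions with FLAG in both arms, and the median log2 ratio of NanogBiD to NanogWT height was 0.21 (quartiles -0.13 and 0.58) beside 0.15 over those regions. H3K27ac was higher in NanogBiD at 1963 members, 66.1%, beside 54.9% of all regions with H3K27ac in both arms, with a median log2 ratio of 0.22 beside 0.08. Heights were not scaled to depth, and in the values over all regions depth cannot be told apart from a change between the arms. A height at least 2-fold higher in NanogBiD was found for FLAG at 247 members, 8.32% beside 7.73%, and for H3K27ac at 124 members, 4.18% beside 1.53%. At least 2-fold lower values were seen for FLAG at 43 members, 1.45% beside 1.93%, and for H3K27ac at 3 members, 0.101% beside 0.419%. H3K27ac was thus kept in list terms at all members by the rule, and in height it stayed within 2-fold at most of them. The corresponding FLAG ratio was 0.58 at the 4520 regions that had the same FLAG and BRG1 peaks but H3K27ac in NanogBiD only.

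Members with more BRG1 had larger ratios. The 455 members with a NanogBiD BRG1 height below 10 tags had a median log2 FLAG ratio of 0 and a median log2 H3K27ac ratio of 0.09. For the 389 members with 20 tags or more these were 0.58 and 0.52. In that bin the median FLAG height was 22 in NanogWT and 33 in NanogBiD, against 13 in both arms in the lowest bin. The median NanogWT H3K27ac height was 13 in the highest bin and 12 in the lowest, while the NanogBiD medians were 20 and 13. The bins therefore differed mainly in the NanogBiD libraries for H3K27ac, and in both arms for FLAG.

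Across the 2968 members, Spearman's rho was 0.375 between BRG1 height and the log2 FLAG ratio, 0.321 between BRG1 height and the log2 H3K27ac ratio, and 0.353 between these ratios (0.348 to 0.358 with each chromosome left out in turn). The last value was 0.313 at promoters and 0.365 elsewhere. BRG1 and FLAG heights within NanogBiD had a rho of 0.749. The signs were the same in the BRG1-shared class. There rho was 0.207 and 0.149 between BRG1 height and the FLAG and H3K27ac ratios, and 0.275 between these ratios. For BRG1 and FLAG heights within NanogBiD it was 0.828. Regions are not independent replicates, and the points share the NanogBiD libraries and any local tag density common to them, so these values are a description.

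**Figure D3:**
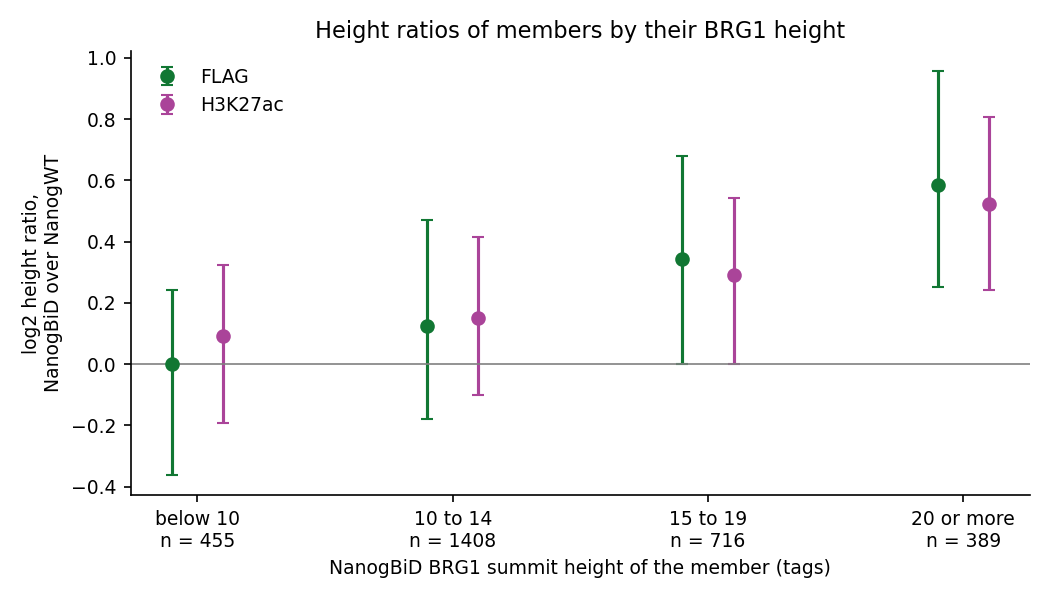
Log2 ratio of NanogBiD to NanogWT summit height (y axis), for FLAG (green) and H3K27ac (purple) in members grouped by NanogBiD BRG1 summit height in tags (x axis); points are medians and bars run from the lower to the upper quartile. Medians go from 0 to 0.58 for FLAG and from 0.09 to 0.52 for H3K27ac from the lowest to the highest bin.

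Heights in the arms followed each other less closely at members than in the BRG1-shared class. Spearman's rho between the NanogWT and NanogBiD heights was 0.486 for FLAG and 0.478 for H3K27ac in members, and 0.700 and 0.826 in the BRG1-shared class, whose heights span a wider range. Summits of different lists lay somewhat further apart at members than at all regions with FLAG in both arms that had the same pair of peaks. The FLAG summits of the arms were a median of 90 bases apart, beside 76, and 53.7% were within 100 bases, beside 58.3%. In NanogBiD the median distance was 80 bases for FLAG and BRG1, beside 70, and 121 for FLAG and H3K27ac, beside 103. In NanogWT it was 165.5 bases for FLAG and H3K27ac, beside 128. Wide spacing was also seen at the 625 regions with FLAG and H3K27ac in both arms and no BRG1. There the medians were 108 bases for FLAG of the arms, and for FLAG and H3K27ac 158 in NanogBiD and 156 in NanogWT.

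H3K4me1, which the rule did not use, was found in both arms at 1735 members, 58.5% (56.7 to 60.2), beside 36.2% of all merged regions and 54.9% of all regions with FLAG in both arms. Other settings gave other regions, and also cut or narrowed the H3K4me1 peaks. The share was then 35.8% for scores from 100 up and 34.8% for the 20000 best peaks of each list. It was 45.8% for heights from 15 tags up and 46.3% for summit windows. Of the regions so defined 25.5%, 43.5%, 15.2% and 66.3%, in that order, overlapped any of the 2968 members. With all peaks, H3K4me1 was found in NanogWT only at 448 members, 15.1% beside 13.9%, and in NanogBiD only at 296, 9.97% beside 9.52%. It was found in neither arm at 489, 16.5% beside 40.4% of all merged regions and 22.4% of all regions with FLAG in both arms. The share with the mark in both arms was 79.2% (78.6 to 79.7) in the BRG1-shared class. It was 54.2% (50.3 to 58.1) at the 625 regions with FLAG and H3K27ac in both arms and no BRG1, 42.0% (40.6 to 43.4) where H3K27ac was in NanogBiD only, and 23.0% at the 6165 regions with BRG1 in NanogBiD only and no H3K27ac. The interval of the members overlapped that of the regions without BRG1 and lay apart from those of the other classes.

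The lower share than in the BRG1-shared class was also seen at matched NanogWT H3K27ac height. It was 57.3% in members against 78.3% below 10 tags, 60.1% against 75.8% from 10 to 15 tags, 58.2% against 77.3% from 15 to 20, and 51.6% against 80.9% at 20 tags or more. Counting only H3K4me1 peaks over the FLAG summit itself gave 50.9% in members and 73.3% in the BRG1-shared class. The order of the arm-specific states depended on the setting: when lists were limited to their 20000 best peaks by score, the mark was in NanogWT only at 10.98% and in NanogBiD only at 14.02% of the members so defined.

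**Figure D4:**
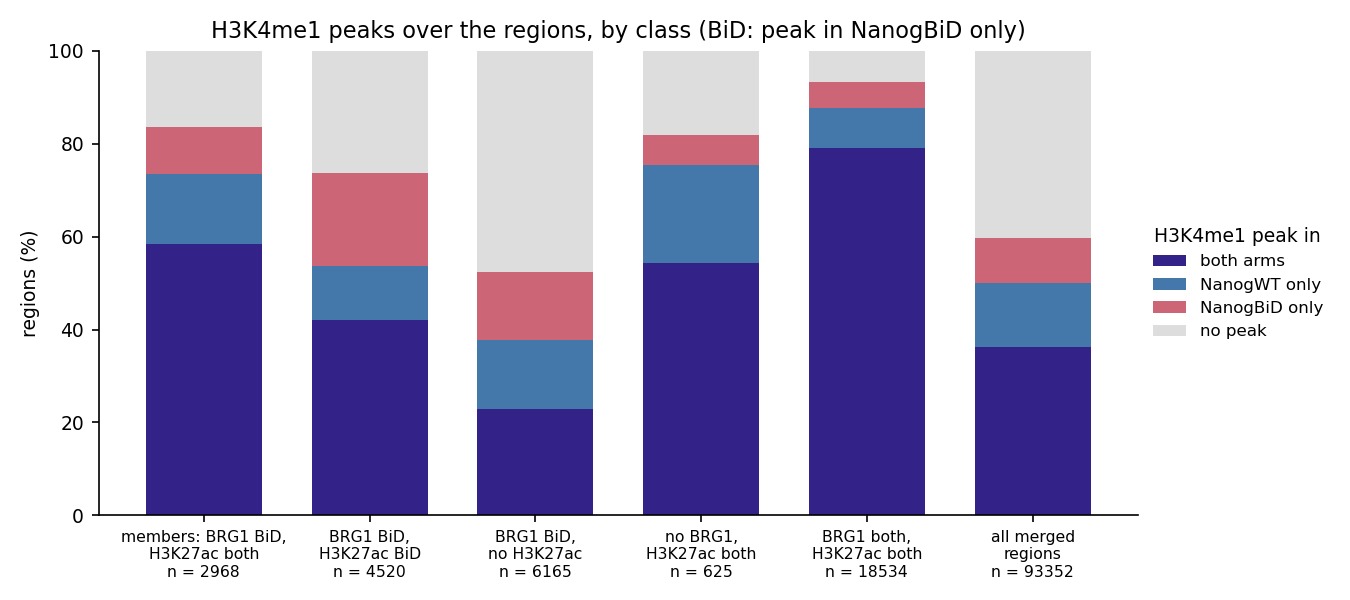
Share of regions in percent (y axis, stacked to 100) with an H3K4me1 peak in both arms, in NanogWT only, in NanogBiD only or in neither, for the members, 4 other classes of regions with FLAG in both arms, and all merged regions (x axis, n below each bar). The mark was in both arms at 58.5% of members, between 42.0% where H3K27ac was in NanogBiD only and 79.2% where BRG1 was in both arms.

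In height, H3K4me1 at members had the same median ratio as over all regions. Its median height was 16 tags in NanogWT, over 2183 members, and 14 in NanogBiD, over 2031. The median log2 ratio at the 1735 members with both peaks was -0.18, and -0.18 over all regions with both peaks. It was higher in NanogBiD at 25.6% of these members, beside 24.1%. At least 2-fold differences were rare, with 0 members higher, beside 0.0177% of regions, and 10 lower, 0.576% beside 0.849%. Members with H3K4me1 in NanogBiD only had a median log2 FLAG ratio of 0.30 and members with it in NanogWT only 0.12, with H3K27ac ratios of 0.28 and 0.17. The log2 ratios of FLAG and H3K4me1 had a rho of 0.137 over 1735 members.

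Most members lay away from promoters, taken as 2 kb either side of any annotated transcript start. Promoters held 692 members, 23.3% (21.8 to 24.9), beside 24.4% of all merged regions and 32.5% (32.1 to 32.9) of all regions with FLAG in both arms. The share was 55.6% (54.9 to 56.4) in the BRG1-shared class, 32.2% (28.6 to 35.9) at regions with H3K27ac in both arms and no BRG1, and 13.5% (12.6 to 14.6) where H3K27ac was in NanogBiD only. By the base of the FLAG summit, 20.2% of members were at a promoter, 3.44% in another exon, 41.0% in an intron and 35.3% between genes. The median distance to a start site was 10.9 kb. Members with more BRG1 were less often at promoters, 28.4% below 10 tags and 17.5% at 20 tags or more. At promoter members the median FLAG heights were 14 and 16 and the median H3K27ac heights 14 and 17, in NanogWT and NanogBiD in that order, and elsewhere 16 and 19 for FLAG and 13 and 15 for H3K27ac.

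The rule bars a NanogWT BRG1 peak inside a member, not beside it. A NanogWT BRG1 peak lay within 1 kb of 129 members, 4.35% (3.67 to 5.14), and within 5 kb of 449, 15.1%, and the median distance was 17.7 kb (quartiles 7.72 and 40.0). Among the regions that met the rule at other settings, the share within 1 kb was 0.732% for scores from 100 up. It was 0.467% for the 20000 best peaks of each list and 33.6% for summit windows. Members were nearer to such a peak than all regions with FLAG in both arms that lacked one, whose median was 24.2 kb. At the regions with H3K27ac in both arms and no BRG1 the median was 13.5 kb, and 8.32% (6.40 to 10.7) had a peak within 1 kb. The median was 23.8 kb where H3K27ac was in NanogBiD only and 29.5 kb where there was no H3K27ac. Of the members, 61 (2.06%) overlapped a stretch of merged H3K27ac peaks that held a NanogWT BRG1 peak elsewhere. Members were spread over the genome, with another member within 10 kb for 130 of them (4.38%) and within 50 kb for 573 (19.3%), and they made up between 5.41% and 7.54% of the regions with FLAG in both arms on each chromosome. Their median length was 1336.5 bases, against 1679 in the BRG1-shared class.

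Membership turned on the peak threshold. Of the members, 238 (8.02%) had a NanogBiD BRG1 score under 60, just inside the minimum of 50, with a median BRG1 height of 9 tags. Just outside, 921 of the BRG1-shared regions (4.97%) had a NanogWT BRG1 score under 60, with median BRG1 heights of 9 (NanogWT) and 14 tags (NanogBiD). With a score of at least 100 required in every list, 2049 regions met the rule, but only 522 of them were among the 2968 and the other 1527 were regions of the BRG1-shared class whose weaker NanogWT BRG1 peak no longer counted. With heights of at least 15 tags 303 of the 2968 were kept. When the NanogBiD BRG1 list was cut to as many top-scoring peaks as the NanogWT list held, 1847 were kept, 62.2%. The absence of a NanogWT peak is thus a statement about a list and its threshold, and the depth of the libraries, which sets how many weak peaks are called, is unknown.

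Sequence at the FLAG summits was searched on both strands, within 50 bases either side of the highest NanogBiD FLAG summit of each member, and again 1 kb downstream. AP-1 matches (TGACTCA or TGAGTCA) were found at 213 members, 7.18% (6.30 to 8.16), against 1.68% in the distant windows and 7.72% at all NanogBiD FLAG summits. The octamer (ATGCAAAT) was found at 70 members, 2.36% (1.87 to 2.97), against 0.809% in the distant windows and 2.51% at all summits. SOX matches (ACAATGG, the form ACAAAGG, the form ACAATAG or the form ACAAAAG) were found at 287 members, 9.67% (8.66 to 10.8), against 6.87% and 8.99%. TEAD matches (GGAATG), the core bound by the effectors of Hippo signalling, were found at 257, 8.66% (7.70 to 9.73), against 5.36% and 6.76%. A homeodomain core (CCATTA), of the kind that NANOG binds, was found at 221, 7.45%, against 4.04% and 7.35%. All of these were more frequent at the summit than 1 kb away, and apart from TEAD the shares of members lay close to those of all summits. The NFY box (CCAAT) was not more frequent at the summit, with 13.0% against 13.8%.

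Away from promoters, AP-1 matches were less frequent at members than in the BRG1-shared class, and nearer to the 8.80% of all distal NanogBiD FLAG summits. A match was found at 7.38% (6.38 to 8.53) of distal members and at 12.0% (11.3 to 12.7) of distal BRG1-shared regions, with 9.52% (8.77 to 10.3) where there was no H3K27ac and 7.57% where H3K27ac was in NanogBiD only. At matched NanogBiD FLAG height the shares were 8.30% (6.81 to 10.1) against 13.3% (12.4 to 14.2) at 20 tags or more. The intervals overlapped at lower heights, with 6.97% (5.25 to 9.19) against 10.3% (8.96 to 11.9) from 15 to 20 tags and 5.85% (4.10 to 8.27) against 7.34% (5.88 to 9.13) from 10 to 15 tags. All distal summits held a homeodomain core at 8.40% and a SOX match at 10.05%, close to the shares of members. The homeodomain core was found at 7.86% (6.83 to 9.04) of distal members and 5.96% (5.47 to 6.50) of distal BRG1-shared regions, and at 11.03% (10.1 to 12.0) where H3K27ac was in NanogBiD only. SOX matches were found at 10.2% (9.06 to 11.6) and 8.52% (7.93 to 9.14), and octamers at 2.77% and 2.58%. Octamers were found at 3.99% (3.42 to 4.65) where H3K27ac was in NanogBiD only. TEAD matches were found at 8.52% of distal members (7.45 to 9.74) and at 8.20% of the distal BRG1-shared class.

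**Figure D5:**
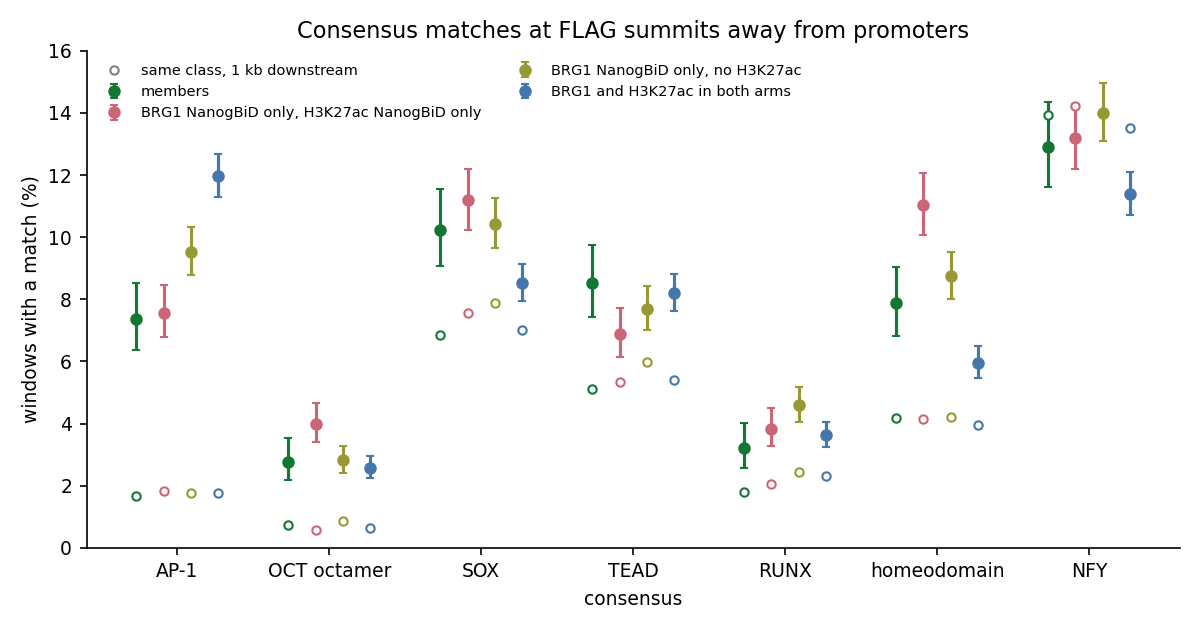
Share of summit windows with a match in percent (y axis) for 7 consensus sequences (x axis) in distal members and 3 other distal classes; filled points are windows of 50 bases either side of the NanogBiD FLAG summit with Wilson 95% intervals, open points are windows 1 kb downstream. Members have AP-1 matches at 7.38% against 12.0% for regions with BRG1 in both arms, and the AP-1 share in the distant windows is below 2% in each class.

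Matches rarely met in a window. AP-1 and TEAD matches were both present at 24 members, AP-1 and SOX at 20, octamer and SOX at 4, and AP-1 and the octamer at 1, and 735 members (24.8%) had at least 1 of these 4. A window with no match says only that these letters are not in it. Members with an AP-1 match had a median log2 FLAG ratio of 0.39 and those without 0.19, those with an octamer 0.33 against 0.20, and those with a homeodomain core 0.32 against 0.19. For SOX the values were 0.20 and 0.21, and for TEAD they were 0.15 and 0.21, lower with a match. The windows lay at NanogBiD FLAG summits, whose height enters the ratio, so match and FLAG ratio were not measured independently. In windows at NanogWT FLAG summits the AP-1 share of members was 5.49%. Median log2 H3K27ac ratios were 0.28 against 0.21 for AP-1, 0.29 against 0.22 for the octamer, 0.30 against 0.21 for the homeodomain core, 0.26 against 0.21 for SOX and 0.22 against 0.22 for TEAD. The median GC content of the summit windows was 43.6% in members, 52.5% in the BRG1-shared class and 41.6% where H3K27ac was in NanogBiD only. Away from promoters the medians lay close together, at 43.6% in members and 44.6% in the BRG1-shared class. At promoters they lay apart, at 47.5% in members and 61.4% in the BRG1-shared class.

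The sites printed above were chosen for high NanogBiD BRG1 scores, and members with more BRG1 had larger ratios as a whole. Their values therefore do not bear on the motifs. At the octamer and AP-1 sites FLAG and H3K27ac heights were higher in NanogBiD. Near Stt3b, FLAG heights were 27 and 42 and H3K27ac heights 11 and 23, with 29 tags of BRG1, and in the intron of Adgrl3, an adhesion receptor of neurons, they were 26 and 44, and 9 and 18, with 31 tags. At the AP-1 site of the Parp12 intron FLAG heights were 15 and 44 and H3K27ac heights 10 and 22, and near Car10 they were 25 and 40, and 12 and 22, each with 26 tags of BRG1. At the SOX site near Tinag FLAG heights were 24 and 37 and H3K27ac heights 11 and 16, with 22 tags of BRG1. A SOX site near Nudt12, with a higher BRG1 score but not printed, had FLAG of 20 and 41 and H3K27ac of 12 and 18. At the SOX site in the intron of Kif6, a kinesin gene, FLAG heights were 59 and 56, while H3K27ac heights were 17 and 30 and BRG1 had 35 tags. The H3K27ac peak score there was 172 in NanogWT and 148 in NanogBiD. The FLAG height of 59 there was the highest NanogWT FLAG height of any member.

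Members near genes of fibroblast identity were described from lists of genes. Members are named here for the list gene they lay in or within 20 kb of, which was not always the nearest. Such a member was found for 10.9% of 21911 protein-coding genes, and 2028 members (68.3%) were that close to a protein-coding gene. Of 35 extracellular matrix genes 7 had a member (95% interval of the share 10.04 to 35.9%), in loci that were longer than the median gene's, 78.2 against 57.4 kb. At the promoter of Dcn, a proteoglycan of connective tissue, FLAG heights were 15 and 24, BRG1 12 in NanogBiD, and H3K27ac 8 and 17, with H3K4me1 of 13 tags in NanogBiD only. A region 22.0 kb from the start of Col1a1, the main chain of type I collagen, and nearer to that of Hils1, had FLAG heights of 12 and 29, BRG1 of 16, H3K27ac of 13 and 24 and H3K4me1 of 18 and 22. Fbn1, a microfibril protein, had 2 members in introns. At the one with the higher BRG1 score FLAG was 10 and 17 and H3K27ac 13 and 15, and at the other FLAG was 12 and 11 and H3K27ac 18 and 11. Tnc, Thbs2 and Col1a2 also had a member.

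Genes of the TEAD and Hippo pathway had a member at 5 of the 18 genes used of 20 listed symbols (27.8%, 12.5 to 50.9), in loci with a median of 83.2 kb. In introns of Yap1, the coactivator of TEAD factors, and of Tead1 the FLAG heights were 13 and 22, and 17 and 23, with H3K27ac of 12 and 17, and 16 and 24. At the promoter of Ankrd1, a known target of YAP1, FLAG was 11 and 12, H3K27ac 12 and 11 and BRG1 14 in NanogBiD, with H3K4me1 of 20 and 16. At a second member 8.85 kb away from that gene, FLAG was 9 and 18, H3K27ac 13 and 15 and BRG1 12, with H3K4me1 of 12 tags in NanogWT only. Ccn2 and Amotl1 also had a member. Of 28 genes of the TGF-beta, Nodal and BMP pathway 4 had a member, Tgfbr3, Smad3, Tgfbr2 and Tgfb1. Tgfbr3, a co-receptor, had 2 members in introns. FLAG was 18 and 36, BRG1 21 and H3K27ac 16 and 21 at the one, and FLAG 23 and 28, BRG1 26 and H3K27ac 21 and 19 at the other. In an intron of Smad3, which carries the signal to the nucleus, FLAG was 9 and 21, BRG1 15 and H3K27ac 17 and 19. The interval included the 10.9% of all genes for the matrix and TGF-beta lists. For the TEAD and Hippo list it lay above that value, in loci longer than the median gene's and without a correction for length. A region of the BRG1-shared class was that close to 94.4% of the genes of this list, against 64.2% of all protein-coding genes, so the list stood above all genes in that class too.

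The other lists had shares whose intervals included the 10.9% of all protein-coding genes. Of 30 pluripotency genes 2 had a member (6.67%, 1.85 to 21.3). The region near Tdgf1, a co-receptor of Nodal, was at the promoter of Lrrc2 and had FLAG of 9 and 18, BRG1 of 15 and H3K27ac of 11 and 22, and that near Lin28a, which blocks maturation of let-7, was at the promoter of Dhdds. Of 20 mesenchymal transcription factors Nfib and Runx2 had a member, and of 14 AP-1 factors none did, with an upper limit of 21.5%. The epithelial list had a member at 1 of 18 genes, the actin list at 2 of 24, the cell cycle list at 2 of 20 and the ribosomal protein list at 4 of 24. Among 23 subunits of BAF complexes 5 had a member, Smarcc1, Actl6b, Arid1b, Bcl7c and Smarca4. In the intron of Smarca4, the gene of BRG1 itself, FLAG was 23 and 19, BRG1 9 and H3K27ac 11 and 11. Foxp1, a forkhead repressor, and Zfhx3 had 6 members each in loci of 637 and 1059 kb, and were picked out after their counts were seen. Of all regions with FLAG in both arms and BRG1 in NanogBiD only, these loci held 13 and 14. Gm20388, in a locus of 4475 kb, had 7 members.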

How the data were processed

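CUT&Tag had been performed for 4 targets in 2 arms at day 5. Per the labels and methods, the authors trimmed reads (Trim Galore 0.6.4), aligned them to mm10 (Bowtie2 2.4.5), filtered them (SAMtools 1.16.1), merged replicates and called peaks (MACS 1.4.2). The number of replicates merged was not given for each list, and no control library was named. The deposited peak score is 10 times the negative log10 of the p-value, with a minimum of 50, and the deposited signal at a summit is a whole number of tags. The authors scaled neither to depth, and depth is unknown here. That NanogN70 is NanogBiD follows the text of the study.

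Peaks and summits were joined by name, and a region took the highest summit of each list. Overlap needed 1 bp. Starts were those of GENCODE transcripts (M21), and sequence that of RefSeq GRCm38. Python 3.11.15, numpy 2.4.6, pandas 2.3.3, scipy 1.17.1 and pysam 0.24.0 were used. Intervals are Wilson 95% intervals for counting error, with regions not being replicates. CRE, ETS, RUNX, GC box, NRF1 and CTCF matches were also counted and were found at fewer than 4% of members each. No consensus contained another on either strand. Named regions were the 6 members at promoters and the 6 elsewhere with the highest NanogBiD BRG1 score, and the 3 elsewhere for each of AP-1, octamer and SOX, outside chromosome 18. Genes named were up to 6 per list. A gene that the rule would name is not reported here. The members, gene lists and rules were chosen with earlier results of these data known. The merging, classing and motif search were checked on simulated data. The alternatives were a higher score, equal list sizes, a minimum height, summit windows, merging across gaps, 50% cover by H3K27ac, and other promoter, motif and distance widths.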

Additional observations from a re-analysis of the deposited data

How the results depend on the processing

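No paired analysis was possible because there was only 1 merged library for each target and arm, without a replicate number. Depth is unknown and limits every count that rests on an absent peak. Of 97 recomputed values 52 left the interval of the reported value, or for the number of members a factor of 1.5, and 45 did not. The cause was not tested, except where a setting's own construction shows it. The 3 following alternatives were chosen after seeing the data: the NanogBiD BRG1 list cut to the size of the NanogWT list, H3K4me1 at the summit base, and NanogWT FLAG summits for motifs.

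The number of members was 428 when each list was limited to its 20000 best peaks by score and 1848 with the cut BRG1 list, and between 1991 and 2929 otherwise. The values below are of the regions that met the rule at each setting. Of the 2968 members 522 were kept for scores from 100 up and 186 for the 20000 best peaks. With heights of at least 15 it was 303, and with summit windows 1410. The other regions at these settings overlapped the BRG1-shared class, of which 55.6% lay at promoters. The promoter share was 30.3% for scores from 100 up, 17.5% for the 20000 best peaks, 32.7% with heights of at least 15, 29.3% with summit windows, 25.8% with H3K27ac over 50% of the region, 18.5% with promoters of 1 kb and 19.4% with the cut list. The H3K4me1 share in both arms was 35.8%, 34.8%, 45.8% and 46.3% under the same first 4 settings and 50.9% at the summit base. The AP-1 share was 8.69% with heights of at least 15, 8.37% with summit windows, 3.23% in windows of 25 bp and 5.49% at NanogWT FLAG summits. The share with a NanogWT BRG1 peak within 1 kb was 0.732%, 0.467%, 1.959% and 33.6% under the same 4 settings, 1.26% when merging across 500 bp, 15.1% within 5 kb and 3.08% with the cut list. Summit windows are shorter than the peaks they replace, so a NanogWT BRG1 summit in the same peak then counts as beside the region. Median log2 ratios stayed above 0 for FLAG (0.15 to 0.24) and H3K27ac (0.16 to 0.34) and below 0 for H3K4me1 (-0.19 to -0.14).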
